A study of Mus musculus with 18 samples.

Results

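The genes examined here are 10 genes that take up glucose and carry it through the steps of glycolysis at which a cell can choose between isozymes. They were chosen by name, as the glucose transporters *Slc2a1* and *Slc2a3*, the hexokinases *Hk1*, *Hk2* and *Hk3*, the phosphofructokinases *Pfkl*, *Pfkm* and *Pfkp*, and the lactate dehydrogenases *Ldha* and *Ldhb*. All 10 were listed among the 20115 genes of the table of developmental stages and among the 20430 genes of the table of reprogrammed fibroblasts. RNA-seq data of 18 mouse samples were used. Of these, 10 samples came from cells of a 129 strain ESC line with a *Brachyury* (Bry) GFP reporter, 2 replicates for each of 5 stages. These were undifferentiated ESCs grown on mouse embryonic fibroblasts (MEFs), mesoderm (MES, Bry:GFP+ and FLK1-), hemangioblast (HB, Bry:GFP+ and FLK1+), hematopoietic progenitors (HP, CD41+) and macrophages (MAC, CD11b+). Hemogenic endothelium (HE), which the paper places between HB and HP, was not analysed here. The step from HB to HP thus spans a stage that was left out. The other 8 samples were single libraries of 129 strain MEFs at day 12 or day 21, which were untreated (uFIB) or received factor combinations for reprogramming to blood. SL stands for TAL1 (also named SCL) with LMO2, SFGL for TAL1, FLI1, GATA2 and LMO2, and FGL for FLI1, GATA2 and LMO2 without TAL1. The MEFs were from embryos at day 14.5 that were wild type or carried iTal1-2A-GFP, in which rtTA and a TRE-TAL1 cassette make TAL1 inducible by doxycycline, and the labels do not say which library came from which.

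Glucose enters cells through facilitative transporters, is phosphorylated and trapped by hexokinase, and is committed to glycolysis by phosphofructokinase, while lactate dehydrogenase interconverts pyruvate and lactate at the end of the pathway. Each step has several isozymes with different affinity, regulation and tissue distribution. Pluripotent cells and activated myeloid cells are both known for a high glycolytic rate.

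Expression was given as FPKM, fragments relative to the length of the transcript and to the depth of the library, which allows levels of different genes to be compared within a table. The table of stages holds 1 value per stage, in which the authors combined the replicates, so that these values have no error and no test between stages was possible. For the stages, a gene was described as higher or lower at a transition when it differed at least 2-fold on log2(FPKM + 1), among genes with at least 1 FPKM in either stage. The tables were normalized separately, and levels are compared only within a table. For ESC the submitters' notes name other tools than for MES, so ESC may have been processed differently. The part of this in differences between ESC and the other stages was not tested. Numbers of reads cannot be read from FPKM, so the depth of the stages was not recovered and values carry no counting interval. The depth of the MEF libraries was likewise not recovered. The paper refers to totals of aligned reads for its experiments, which were not used here. Markers of the stages were highest in the stage they mark, apart from *Mixl1* and *Eomes*, which were higher in HB than in MES, and *Tal1*, which was higher in HP than in HB. Red cell markers summed to 6344 FPKM in HP and to 43.5 or less in the other stages, and fibroblast markers to 36.7 in HP and to 5.45 or less elsewhere. In all of the bulk samples, a lower value can come from fewer cells of a type or from less RNA per cell, which cannot be told apart.

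Promoter sequences are printed for *Hk3*, which had the widest range of levels across the stages, and for 1 gene of each of 3 families in which a motif of a hypoxia-inducible factor was found. RefSeq gave a promoter for 9 of the 10 genes. The motif ACGTG, which reads CACGT on the other strand and is the core bound by hypoxia-inducible factors, and the motif AGGAAG, which reads CTTCCT on the other strand and is a core bound by ETS factors such as FLI1 and PU.1, were searched on both strands in the 250 bases before the start site. The motifs were chosen after the expression values had been seen. ACGTG lies within the palindrome CACGTG, and overlapping matches were counted once. Capitals mark ACGTG in *Slc2a1* (chr4:119108495-119108744, plus strand), *Hk2* (chr6:82774455-82774704, minus strand) and *Ldha* (chr7:46845554-46845803, plus strand), and AGGAAG in *Hk3* (chr13:55021386-55021635, minus strand), each on the RefSeq annotation of GRCm38.p6 and printed 5′ to 3′ in the direction of the gene.
Slc2a1: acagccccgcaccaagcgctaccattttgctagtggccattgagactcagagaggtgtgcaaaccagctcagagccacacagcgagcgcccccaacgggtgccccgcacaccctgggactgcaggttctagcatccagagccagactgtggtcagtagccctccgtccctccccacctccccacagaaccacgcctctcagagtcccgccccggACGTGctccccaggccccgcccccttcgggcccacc
Hk2: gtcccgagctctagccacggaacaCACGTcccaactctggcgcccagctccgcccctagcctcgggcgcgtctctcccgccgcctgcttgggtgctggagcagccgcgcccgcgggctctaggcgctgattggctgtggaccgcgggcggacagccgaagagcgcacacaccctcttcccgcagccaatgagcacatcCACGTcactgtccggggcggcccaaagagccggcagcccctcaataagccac
Ldha: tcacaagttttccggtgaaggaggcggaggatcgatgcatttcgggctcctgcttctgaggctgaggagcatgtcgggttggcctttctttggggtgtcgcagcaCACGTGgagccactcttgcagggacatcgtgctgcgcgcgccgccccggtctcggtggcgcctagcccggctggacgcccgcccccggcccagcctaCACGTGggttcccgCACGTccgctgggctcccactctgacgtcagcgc
Hk3: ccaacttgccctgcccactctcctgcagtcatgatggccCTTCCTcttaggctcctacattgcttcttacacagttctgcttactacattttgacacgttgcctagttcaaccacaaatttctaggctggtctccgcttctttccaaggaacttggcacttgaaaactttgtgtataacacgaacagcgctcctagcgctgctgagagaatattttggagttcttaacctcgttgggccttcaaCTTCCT

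ACGTG was present in 5 of the 9 genes, with 1 match in *Slc2a1*, 2 matches in *Hk2*, 3 in the first promoter of *Ldha*, 1 in *Hk3* and 1 in each of 2 promoters of *Pfkm*. Of the 14 promoters of these 9 genes, 6 thus held ACGTG, whereas 16.6% of 32851 promoters of the same length did. At least 2 matches were found in 1.95% of all promoters and at least 3 in 0.256%. No ACGTG was found in these windows of *Hk1*, *Pfkl*, *Pfkp* and *Ldhb*. AGGAAG had 2 matches in *Hk3* and was otherwise found in 1 promoter of *Hk1* and 3 of *Pfkm*, of which 2 overlap and share the same match, against 29.5% of all promoters with at least 1 match and 5.91% with at least 2. The matches describe letters within a window and not binding.

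On GRCm38, *Slc2a1* lies on chromosome 4 at 119108711 to 119137983 and *Slc2a3* on chromosome 6 at 122727809 to 122801640 in the GENCODE annotation. *Hk1* (chromosome 10, 62268855 to 62379908), *Hk2* (chromosome 6, 82725025 to 82774454) and *Hk3* (chromosome 13, 55005985 to 55021385) are unlinked. The phosphofructokinases are on chromosome 10 (*Pfkl*, 77986947 to 78010083), 15 (*Pfkm*, 98092589 to 98132451) and 13 (*Pfkp*, 6579768 to 6648777). *Ldha* (chromosome 7, 46841475 to 46855627) and *Ldhb* (chromosome 6, 142490249 to 142507957) also lie apart. *Hk3*, *Pfkm* and *Pfkp* overlap the ends of the genes *Unc5a*, *Senp1* and *Pitrm1* on the opposite strand, and *Slc2a1*, *Hk1* and *Hk2* overlap antisense RNAs. Whether the counting used strand is not given in the sources used here, so reads from these overlaps cannot be told apart. *Ldha* has 2 named pseudogenes, and keeping reads with a single position can lower its value and its share of the family. Pseudogenes that do not carry the name of the gene were not counted for any of the 10 genes.

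The transporters *Slc2a1* and *Slc2a3* had their highest levels in ESC and their lowest in MAC, and *Slc2a3* gave way to *Slc2a1* as the larger of the pair. *Slc2a1* encodes GLUT1, the transporter of basal glucose uptake in many tissues, and *Slc2a3* encodes GLUT3, a transporter of high affinity known from neurons and early embryos. *Slc2a1* was at 90.9 FPKM in ESC, then 55.4 in MES, 53.8 in HB and 84.3 in HP, and 21.2 in MAC. *Slc2a3* was at 152 FPKM in ESC, then 94.6 in MES, 74.2 in HB and 76.9 in HP, and 10.01 in MAC. Both were thus lowest in MAC, and from HP to MAC the difference on log2(FPKM + 1) was -1.94 for *Slc2a1* and -2.82 for *Slc2a3*. Among all genes, 13.8% were at least 2-fold lower at that transition. Of the summed FPKM of both transporters, *Slc2a3* held 62.6% in ESC, then 63.1% in MES, 58.0% in HB and 47.7% in HP, and 32.1% in MAC.

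**Figure D1:**
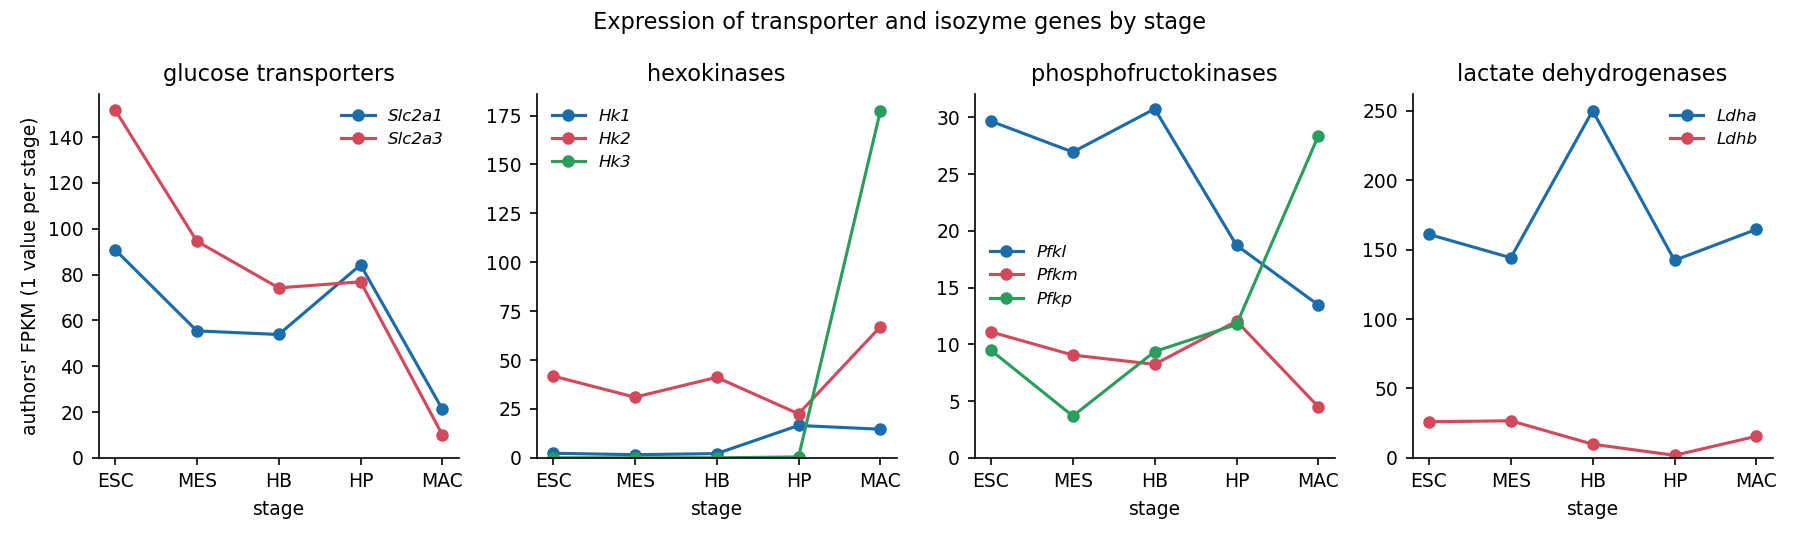
FPKM of the 10 genes (vertical axes, starting at 0) in the 5 stages (horizontal axes), in a panel per family; each point is the authors' single value per stage and carries no error. *Hk3* is seen only in MAC, at 177 FPKM, where *Slc2a3* is at its lowest, 10.01 FPKM.

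*Hk2* was the highest hexokinase from ESC to HP, where *Hk1* came closest to it, and *Hk3* was the highest in MAC. *Hk2*, the hexokinase of muscle, fat and many growing cells, which binds mitochondria, was at 41.8 FPKM in ESC, then 31.0 in MES, 41.2 in HB and 22.5 in HP, and 67.0 in MAC. *Hk1*, the widely expressed form of brain and red cells, was at 2.32 FPKM in ESC, then 1.61 in MES, 2.16 in HB and 16.5 in HP, and 14.6 in MAC. *Hk3*, the form known from white blood cells, was listed at 0 in ESC and was at 0.0207 FPKM in MES, 0.00582 in HB and 0.461 in HP, but at 177 in MAC. The levels of *Hk1* were low through HB and 7.67-fold higher in HP, a difference of 2.47 on the log2 scale. Of the 9 genes that passed 1 FPKM, *Hk1* was the only one at least 2-fold higher from HB to HP, where 8.84% of all genes were. *Hk3* was below 1 FPKM in both stages and was not counted. Its difference from HB to HP was 0.54 on the log2 scale and 2.41 with a pseudocount of 0.1 FPKM. *Hk3* was 385-fold higher in MAC than in HP, with a log2 difference of 6.93.

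In shares of the hexokinase FPKM, *Hk2* held 94.7% in ESC, then 94.998% in MES, 95.01% in HB and 56.9% in HP, and 25.9% in MAC. The share of *Hk1* was 5.25% in ESC and 41.9% in HP, and it was 5.64% again in MAC. *Hk3* made up 68.5% in MAC and at most 1.17% in the earlier stages analysed. The sum of the 3 hexokinases was 44.2 FPKM in ESC, then 32.6 in MES, 43.3 in HB and 39.5 in HP, and 259 in MAC. *Hk2* stayed above *Hk1* and *Hk1* above *Hk3* in every analysed stage through HP. Red cell markers, which summed to 6344 FPKM in HP, were high in the stage in which the share of *Hk1* was highest, and their part in that share was not tested.

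The leading phosphofructokinase was *Pfkl* through HP and *Pfkp* in MAC. The sum of the 3 was between 39.7 and 50.2 FPKM in the 5 stages as deposited, but after scaling to the same upper quartile it was 59.8 in ESC, 47.7 in HP and 31.2 in MAC. *Pfkl*, the liver form, was at 29.7 FPKM in ESC, then 26.9 in MES, 30.7 in HB and 18.7 in HP, and 13.5 in MAC. *Pfkm*, the muscle form, was at 11.1 FPKM in ESC, then 9.05 in MES, 8.24 in HB and 12.0 in HP, and 4.49 in MAC. *Pfkp*, the platelet form, was at 9.47 FPKM in ESC, then 3.68 in MES, 9.36 in HB and 11.7 in HP, and 28.4 in MAC. *Pfkl* was lowest and *Pfkp* highest in MAC, and *Pfkp* was lowest in MES. *Pfkp* was the only one of the 10 genes that was at least 2-fold lower from ESC to MES (-1.16 on the log2 scale), where 7.29% of all genes were, and the only one at least 2-fold higher from MES to HB (1.15), where 2.52% of all genes were. Its share of the family was 18.9% in ESC, then 9.28% in MES, 19.4% in HB and 27.6% in HP, and 61.2% in MAC, while that of *Pfkl* was 67.9% in MES and 29.1% in MAC.

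Lactate dehydrogenase was mostly *Ldha* in every stage. *Ldha* encodes the subunit of muscle that favors lactate production, and was at 161 FPKM in ESC, then 144 in MES, 250 in HB and 142 in HP, and 165 in MAC. *Ldhb* encodes the subunit of heart that favors lactate use, and was at 26.0 FPKM in ESC, then 26.7 in MES, 9.82 in HB and 1.81 in HP, and 15.5 in MAC. No step of *Ldha* reached 2-fold, and its highest stage was HB. *Ldhb* was lower from MES to HB (-1.36 on the log2 scale), where 3.3% of all genes were at least 2-fold lower, lower again from HB to HP (-1.95), where 8.78% were, and higher from HP to MAC (2.56). Its share of the family was 13.9% in ESC, then 15.6% in MES, 3.78% in HB and 1.25% in HP, and 8.62% in MAC.

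**Figure D2:**
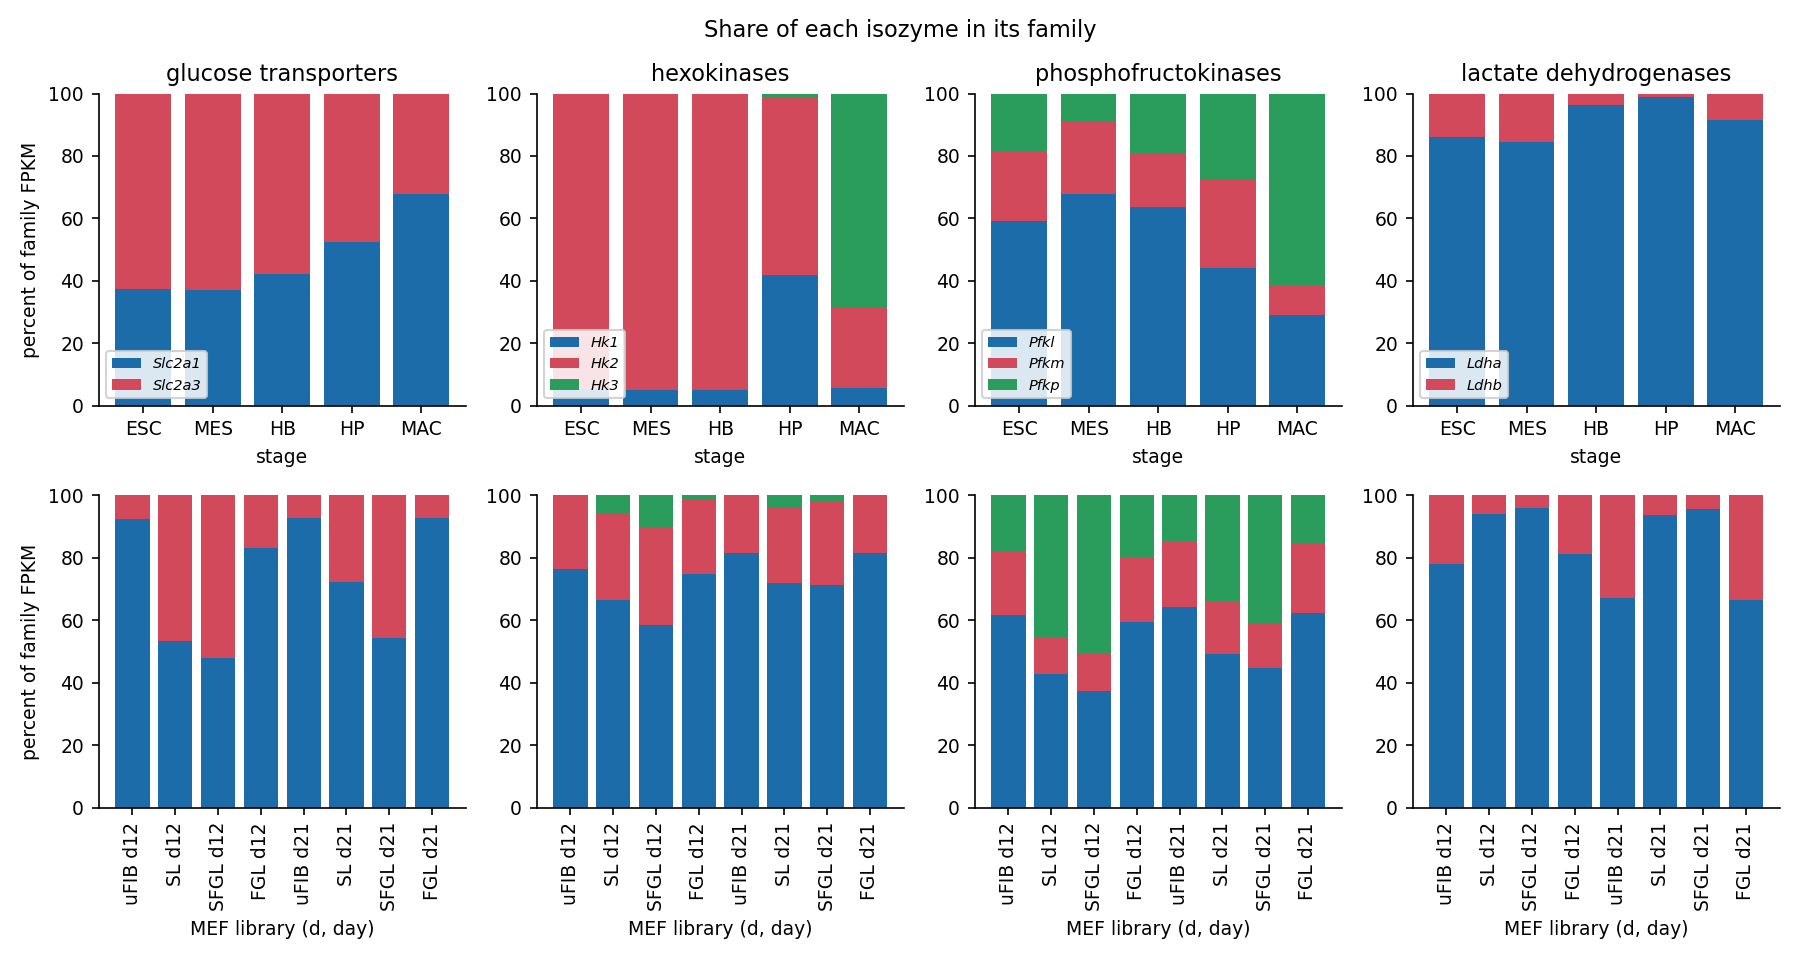
Percent of the summed FPKM of a family held by each isozyme (vertical axes, 0 to 100), in the 5 stages (upper row) and in each of the 8 MEF libraries (lower row, d for day); the colors stand for the genes named in the upper panel of each family. *Hk3* holds 68.5% of the hexokinase FPKM in MAC. *Slc2a3* holds 7.60% and 7.25% of the summed FPKM of *Slc2a1* and *Slc2a3* in uFIB but 27.8% to 52.2% in SL and SFGL.

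Counted by transition, 9 of the 10 genes passed 1 FPKM from ESC to MES, of which 0 were at least 2-fold higher and 1 lower, against 6.94% and 7.29% of all genes. From MES to HB 1 of 9 was higher and 1 lower, against 2.52% and 3.3% of all genes, and from HB to HP 1 of 9 was higher and 1 lower, against 8.84% and 8.78%. From HP to MAC all 10 passed, *Hk3* only through its level in MAC, 4 were higher (*Hk3*, *Ldhb*, *Hk2* and *Pfkp*) and 3 lower (*Slc2a3*, *Slc2a1* and *Pfkm*), where 33.4% of all genes were higher and 13.8% lower. The median difference of all genes at this transition was 0.45 on the log2 scale, and genes above 0 had an upper quartile of 18.0 FPKM in MAC against 10.8 in HP. After both stages were scaled to the same upper quartile, *Hk2* (0.81) and *Pfkp* (0.50) were no longer 2-fold higher and *Pfkl* (-1.13) was 2-fold lower, which left 2 of 10 higher and 4 lower, against 19.6% and 24.7% of all genes under that scaling. Relative to the median of all genes, *Hk2* differed by 1.09 and *Pfkp* by 0.76. The shares within a family do not depend on this scaling.

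Some genes had more than 1 transcription start site in the table of stages, and their rows were summed. The 2 start sites of *Hk3* were both at their highest in MAC, at 139 and 38.1 FPKM. Of the 2 start sites of *Hk1*, 1 was at 0.875 FPKM in ESC and 16.1 in HP and the other at 1.45 in ESC and 0.447 in HP, so that the higher level of *Hk1* in HP came from the first. *Pfkm* had 3, at 0, 3.42 and 7.67 FPKM in ESC and at 3.10, 6.48 and 2.46 in HP, and the leading start site differed between these stages. With only the highest start site of each gene, the share of *Pfkm* in MES was 9.89% instead of 22.8% and that of *Pfkl* 79.3%. For *Ldha* a single start site held 155 FPKM in ESC and the other 5.91.

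Other genes of the pathway were followed with a list of 51, of which 48 were in the table of stages. From ESC to MES 28 passed 1 FPKM, of which 1 was higher and 5 lower by at least 2-fold, against 6.94% and 7.29% of all genes. The 2 with the largest negative differences were *Pgd*, an enzyme of the pentose phosphate pathway (45.1 to 14.9 FPKM), and the enolase *Eno1* (20.7 to 7.15). From MES to HB 1 of 26 was higher, the transcription factor *Myc* (6.77 to 17.7), and 1 lower, the pyruvate dehydrogenase kinase *Pdk1* (11.9 to 5.02), against 2.52% and 3.3% of all genes. From HB to HP 2 of 27 were higher and 3 lower, against 8.84% and 8.78%. Among them *Pfkfb4*, which makes and degrades an activator of phosphofructokinase, was at 1.16 FPKM in HB and 16.6 in HP. The lactate carriers *Slc16a3* (54.3 to 13.2) and *Slc16a1* (116 to 41.7) were lower in HP. From HP to MAC 13 of 33 were higher and 2 lower, against 33.4% and 13.8% of all genes, and after scaling to the same upper quartile 8 of 32 were higher and 4 lower, against 19.6% and 24.7%. At this transition the aldolase *Aldoc* (0.804 to 15.8) and *Mpc2*, a subunit of the mitochondrial pyruvate carrier (13.2 to 47.9), were higher, and *Slc16a1* (41.7 to 14.5) was lower. *Gapdh*, a glycolytic enzyme of high abundance with many pseudogenes, was listed at only 0.171 to 1.57 FPKM in the stages, where reads with more than 1 position had been left out. *Pgam1* (3.13 to 8.17), *Pgk1* (7.98 to 13.4) and *Eno1* (4.75 to 20.7) were also low there, and values of genes with near-identical copies, that of *Eno1* above included, are uncertain in the table of stages.

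In the MEFs, the transgenes were checked first. *Tal1* was at 0.0414 and 0.415 FPKM in uFIB at days 12 and 21, at 62.0 and 347 in SL, at 58.0 and 119 in SFGL, and at 7.04 and 0.0705 in FGL. The library labelled FGL at day 12 thus held *Tal1*, which is no part of that combination. *Lmo2* was at 36.2 and 66.5 FPKM in FGL and at 2.28 or less in uFIB. The fibroblast markers *Col1a1*, *Col1a2*, *Col3a1*, *Thy1* and *Pdgfrb* summed to 5059 to 6371 FPKM in uFIB, 4913 to 5154 in FGL and 905 to 2178 in SL and SFGL. All 6 of the granulocyte markers *Mpo*, *Elane*, *Prtn3*, *Epx*, *Prg2* and *Ngp* moved the other way, with sums of 9483 to 15608 FPKM in SL and SFGL, 10.6 to 42.6 in uFIB, and 1569 and 6.90 in FGL at days 12 and 21. Red cell markers summed to 96.5 to 295 FPKM in SL and SFGL, to 0.498 or less in uFIB and to 53.1 and 0.516 in FGL, and macrophage markers to 84.2 to 208, to 7.11 or less and to 22.7 and 4.72. These lists moved with every difference of SL and SFGL given here, and their part in it was not tested.

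Treatments were compared with limma on log2(FPKM + 1), with treatment and day as additive terms over all 8 libraries and the 12089 genes that averaged 1 FPKM or more. Since no condition was repeated, the spread that the p-values rest on is what the treatments did differently on the 2 days. Differences are given with their SE over 2 libraries per treatment, and adjusted p-values are two-sided and adjusted by Benjamini-Hochberg over all genes. The 3 comparisons with uFIB share the same 2 control libraries.

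Both transporters were higher in SL and SFGL than in uFIB, and *Slc2a3* differed by the larger factor. *Slc2a3* was at 2.22 and 1.28 FPKM in uFIB at days 12 and 21, at 52.9 and 19.9 in SL, at 52.3 and 49.9 in SFGL, and at 6.94 and 1.68 in FGL. *Slc2a1* was at 27.0 and 16.4 FPKM in uFIB, at 60.6 and 51.6 in SL, at 47.9 and 59.0 in SFGL, and at 33.9 and 21.0 in FGL. For both genes the 4 libraries of SL and SFGL lay above the 4 of uFIB and FGL, without overlap, as they did for 29.3% of all genes tested. *Slc2a3* rose by 3.63 ± 0.38 in SL (adjusted p = 0.00157) and by 4.26 ± 0.38 in SFGL (adjusted p = 0.000753). *Slc2a1* rose by 1.37 ± 0.26 in SL (adjusted p = 0.00834) and by 1.29 ± 0.26 in SFGL (adjusted p = 0.00824). Without uFIB at day 21 the adjusted p for *Slc2a1* was 0.0510 in SL and 0.0524 in SFGL, and without SL at day 21 it was 0.0539 in SL. Of the summed FPKM of *Slc2a1* and *Slc2a3*, *Slc2a3* held 7.60% and 7.25% in uFIB at days 12 and 21, 46.6% and 27.8% in SL, 52.2% and 45.8% in SFGL, and 17.0% and 7.42% in FGL. Other transporters are not part of these shares. *Slc2a4* was at 6.96 and 14.3 FPKM in uFIB, 1.64 and 0.996 in SL, 0.753 and 0.430 in SFGL, and 4.28 and 11.0 in FGL. It was called lower in SL (-2.26 ± 0.44, adjusted p = 0.00951) and SFGL (-2.80 ± 0.44, adjusted p = 0.00378). *Slc2a10* was also called lower in both, and *Slc2a6* and *Slc2a9* higher, *Slc2a9* from below 1 FPKM in uFIB.

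**Figure D3:**
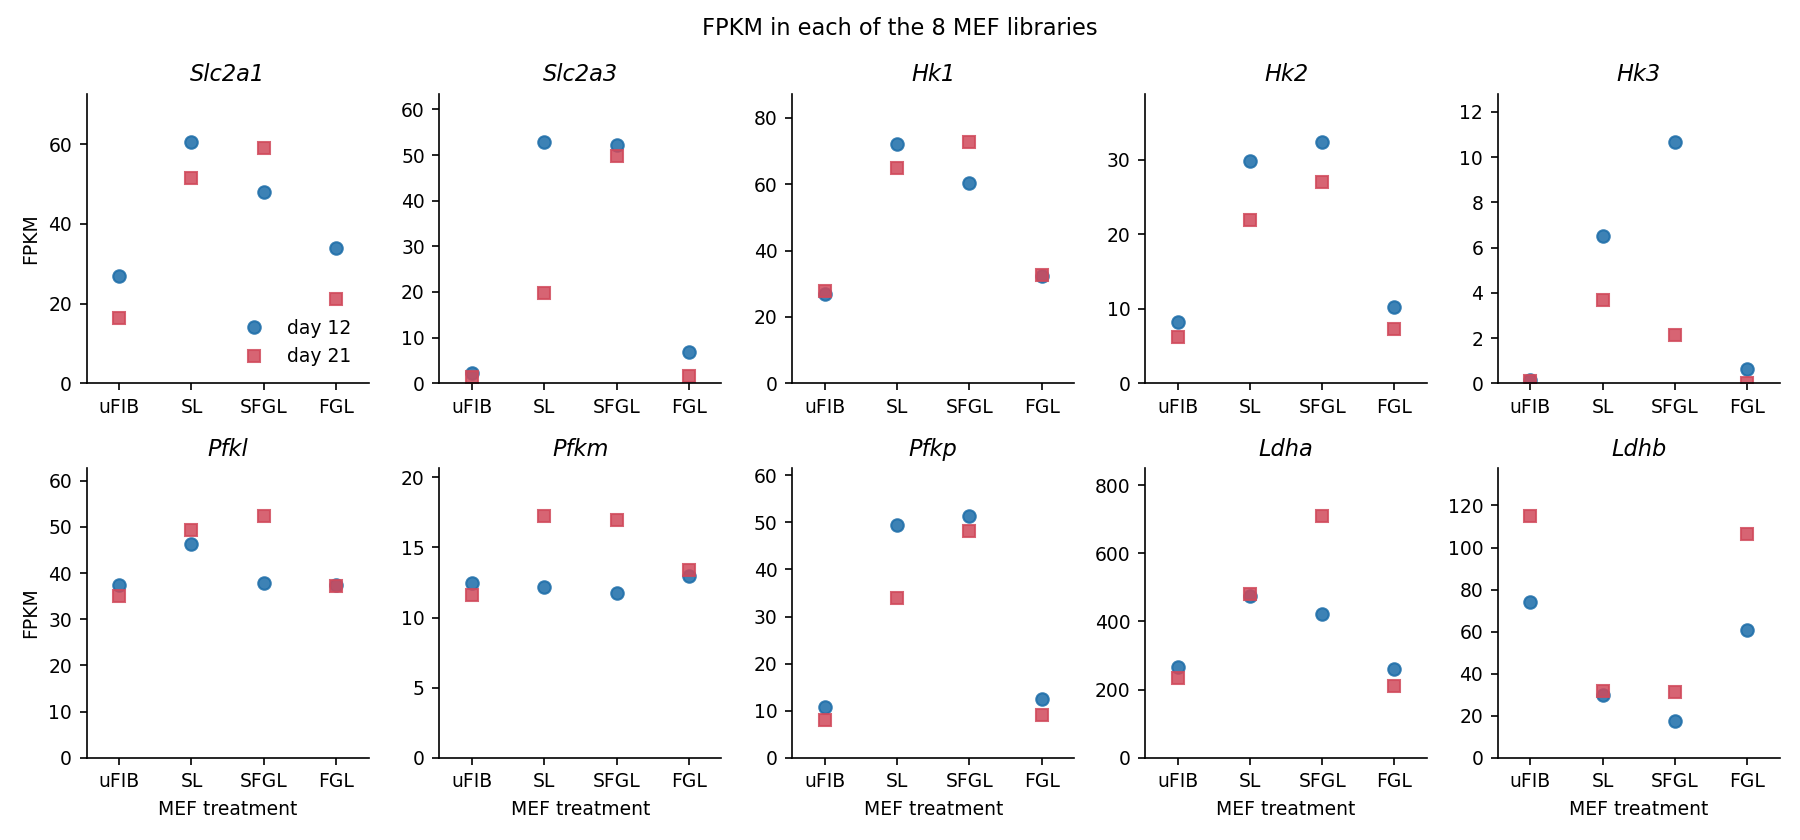
FPKM (vertical axes, starting at 0) of each gene in the 8 MEF libraries by treatment (horizontal axes), with day 12 as blue circles and day 21 as red squares; each point is 1 library. For 8 of the 10 genes the 4 SL and SFGL libraries lie above all 4 uFIB and FGL libraries, for *Ldhb* they lie below them, and for *Pfkm* the ranges overlap. Among all genes tested, 29.3% lay above and 31.3% below in this way.

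The 3 hexokinases had higher levels in SL and SFGL than in uFIB, and *Hk1* stayed the major one. *Hk1* was at 26.8 and 27.9 FPKM in uFIB at days 12 and 21, at 72.3 and 64.9 in SL, at 60.3 and 72.8 in SFGL, and at 32.5 and 32.7 in FGL. *Hk2* was at 8.17 and 6.26 FPKM in uFIB, at 29.8 and 21.8 in SL, at 32.4 and 27.0 in SFGL, and at 10.3 and 7.34 in FGL. *Hk3* was at 0.122 and 0.0851 FPKM in uFIB, at 6.49 and 3.70 in SL, at 10.7 and 2.15 in SFGL, and at 0.623 in FGL at day 12, and was listed at 0 in FGL at day 21. All 3 lay higher in the SL and SFGL libraries than in the others without overlap, as did 29.3% of all genes tested. *Hk1* rose by 1.29 ± 0.12 in SL (adjusted p = 0.00132) and by 1.25 ± 0.12 in SFGL (adjusted p = 0.000955). *Hk2* rose by 1.70 ± 0.10 in SL (adjusted p = 0.000962) and by 1.91 ± 0.10 in SFGL (adjusted p = 0.000424). *Hk3* passed the filter of 1 FPKM only through the SL and SFGL libraries, so its differences of 2.43 ± 0.42 in SL and 2.46 ± 0.42 in SFGL are given as a description. Without the filter their adjusted p was 0.0118 in SL and 0.00921 in SFGL. The size depended on the pseudocount, and at 0.1 FPKM the differences were 4.63 and 4.60. *Hk1* held 76.4% and 81.5% of the hexokinase FPKM in uFIB and 58.3% to 71.8% in SL and SFGL. *Hk3* reached 10.3% in SFGL at day 12 and 2.10% at day 21.

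Of the phosphofructokinases only *Pfkp* passed the test. *Pfkp* was at 10.9 and 8.03 FPKM in uFIB at days 12 and 21, at 49.5 and 34.0 in SL, at 51.3 and 48.1 in SFGL, and at 12.4 and 9.17 in FGL. *Pfkl* was at 37.4 and 35.1 FPKM in uFIB, at 46.4 and 49.3 in SL, at 37.8 and 52.3 in SFGL, and at 37.5 and 37.3 in FGL. *Pfkm* was at 12.5 and 11.6 FPKM in uFIB, at 12.2 and 17.2 in SL, at 11.8 and 16.9 in SFGL, and at 12.99 and 13.4 in FGL. *Pfkp* did not overlap between the SL and SFGL libraries and the others, *Pfkl* was separated by a narrow margin (37.8 against 37.5 FPKM), and *Pfkm* overlapped. Among all genes tested, 29.3% lay higher in SL and SFGL without overlap. *Pfkp* rose by 2.02 ± 0.13 in SL (adjusted p = 0.000962) and by 2.29 ± 0.13 in SFGL (adjusted p = 0.000424). *Pfkl* differed by 0.39 in SL (95% interval 0.01 to 0.77, adjusted p = 0.0776) and by 0.29 in SFGL (-0.09 to 0.67, adjusted p = 0.154), and its call depended on the library, since without SFGL at day 12 the adjusted p was 0.0382 in SL and 0.0385 in SFGL, and without SFGL at day 21 it was 0.0384 in SL. *Pfkm* differed by 0.25 in SL (-0.20 to 0.69, adjusted p = 0.288) and by 0.21 in SFGL (-0.23 to 0.66, adjusted p = 0.344). *Pfkp* held 17.9% and 14.7% of the family FPKM in uFIB, 45.8% and 33.8% in SL, 50.8% and 41.0% in SFGL, and 19.8% and 15.3% in FGL.

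The lactate dehydrogenases moved in opposite directions. *Ldha* was at 265 and 233 FPKM in uFIB at days 12 and 21, at 476 and 480 in SL, at 421 and 708 in SFGL, and at 261 and 211 in FGL. *Ldhb* was at 74.3 and 115 FPKM in uFIB, at 29.9 and 31.6 in SL, at 17.4 and 31.5 in SFGL, and at 60.8 and 106 in FGL. The SL and SFGL libraries were all above the others for *Ldha* and all below them for *Ldhb*, as they were for 29.3% and 31.3% of all genes tested. *Ldhb* fell by 1.56 ± 0.20 in SL (adjusted p = 0.00264) and by 1.93 ± 0.20 in SFGL (adjusted p = 0.00107). *Ldha* rose by 0.94 ± 0.26 in SL (adjusted p = 0.0301) and by 1.13 ± 0.26 in SFGL (adjusted p = 0.0143). The call of *Ldha* in SL was lost without any 1 of the uFIB and SL libraries, with an adjusted p of 0.0742 without uFIB at day 12, 0.134 without SL at day 12, 0.152 without uFIB at day 21 and 0.109 without SL at day 21, and in SFGL it was lost without uFIB at day 21 (0.0849). Without SFGL at day 21 the difference of *Ldha* in SFGL was 0.68 (adjusted p = 0.0359). *Ldhb* held 21.9% and 33.0% of the family FPKM in uFIB, 18.9% and 33.5% in FGL, and 3.96% to 6.18% in SL and SFGL.

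**Figure D4:**
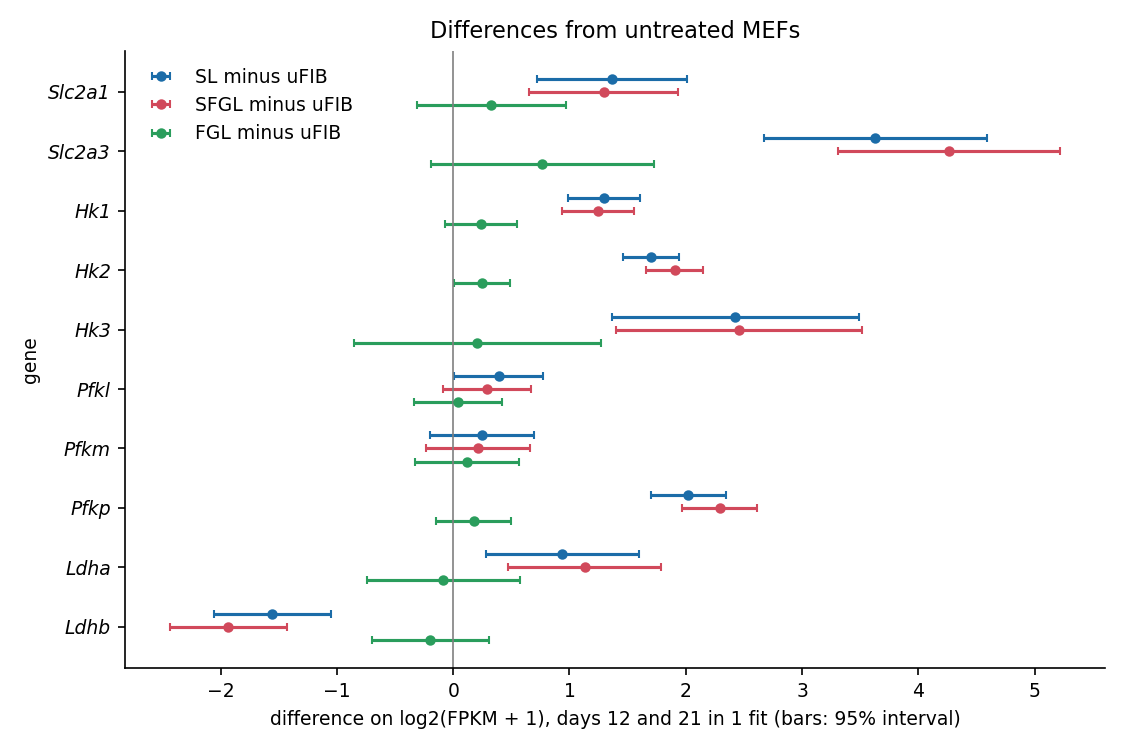
Difference from uFIB on log2(FPKM + 1) (horizontal axis) for each gene (vertical axis) in SL (blue), SFGL (red) and FGL (green); points are estimates of the fit over 8 libraries and bars are 95% intervals. The SL and SFGL intervals of 8 genes lie away from 0 by more than those of *Pfkl* and *Pfkm*, and *Ldhb* is the only gene to the left, at -1.56 and -1.93.

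Of the 10 genes, 7 were called higher, among them *Hk3*, which passed the filter only through the SL and SFGL libraries, and 1 lower in SL, where 52.7% of all tested genes were called, 25.4% higher and 27.3% lower. SFGL gave the same counts, against 58.9% of all genes, 27.9% higher and 31% lower. The median difference of the 10 genes was 1.33 in SL and 1.27 in SFGL, while the median of all genes was -0.03 in both. In FGL 0 of the 10 were called (adjusted p of at least 0.933), and 1, *Hk2*, had an unadjusted p under 0.05, as did 469 of the 12089 genes tested. There 0.0165% of all genes were called. The intervals in FGL were wide, from -0.19 to 1.72 for *Slc2a3* and from -0.74 to 0.57 for *Ldha*. Without overlap, 8 of the 10 genes were higher and 1 lower in the 4 SL and SFGL libraries than in the 4 uFIB and FGL libraries, against 29.3% and 31.3% of all genes. *Hk3*, among these 8, passed the filter only through the SL and SFGL libraries.

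Direct comparisons between factor combinations were added after the data had been seen. Against FGL, which lacks TAL1 in its label, SL and SFGL both gave 7 of the 10 genes higher and 1 lower, where 48.9% of all genes were called in SL (24.2% higher and 24.6% lower) and 56.4% in SFGL (27.2% and 29.3%). *Hk3*, among these 7, passed the filter only through the SL and SFGL libraries. *Slc2a3* was higher than in FGL by 2.86 ± 0.38 in SL (adjusted p = 0.00349) and by 3.496 ± 0.38 in SFGL (adjusted p = 0.00142). *Ldhb* had a log2 difference of -1.36 ± 0.20 from FGL in SL (adjusted p = 0.00463) and of -1.74 ± 0.20 in SFGL (adjusted p = 0.00165). The calls of *Slc2a1* and *Ldha* against FGL were lost in SL without SL at day 12 (adjusted p = 0.0896 and 0.120) or at day 21 (0.108 and 0.0974) and without FGL at day 21 (0.120 and 0.132), and *Hk3* was lost without SL at day 12 (0.0548) or day 21 (0.0611). In SFGL, *Slc2a1* was lost without SFGL at day 21 (0.0928) or FGL at day 21 (0.128), and *Ldha* without FGL at day 21 (0.0705). Between SFGL and SL, limma called 0 of the 10 genes, with 0 at an unadjusted p under 0.05, and 0% of all genes, with 1100 genes at an unadjusted p under 0.05. The intervals of SFGL minus SL ran from -0.32 to 1.59 for *Slc2a3*, from -0.05 to 0.59 for *Pfkp* and from -0.88 to 0.12 for *Ldhb*, which leaves room for differences in either direction.

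Between day 21 and day 12 in the same fit, 0 of the 10 genes were called, where 2.55% of all genes were, and 5 had an unadjusted p under 0.05, as did 3090 of the 12089 genes tested. These 5 were *Slc2a3* (-0.87 ± 0.27, adjusted p = 0.135), *Hk2* (-0.36 ± 0.07, adjusted p = 0.0620), *Hk3* (-0.83 ± 0.30, adjusted p = 0.168), *Pfkp* (-0.35 ± 0.09, adjusted p = 0.103) and *Ldhb* (0.58 ± 0.14, adjusted p = 0.0946). The first 4 had lower and *Ldhb* higher estimates at day 21.

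Of the pathway list, 49 genes were in the table of MEFs and 41 were tested. In SL 22 were called higher and 8 lower, where 25.4% and 27.3% of all genes were, and in SFGL 20 and 8, where 27.9% and 31% were. In FGL limma called 0, with 1 at an unadjusted p under 0.05, where 0.0165% of all genes were called and 469 of 12089 had an unadjusted p under 0.05. The smallest adjusted p-values belonged to the transporter *Slc2a6*, to *Myc* and to *Gapdh*. *Slc2a6* was at 1.16 and 0.771 FPKM in uFIB at days 12 and 21, 7.83 and 5.31 in SL and 5.75 and 5.51 in SFGL. It rose by 1.93 ± 0.15 in SL (adjusted p = 0.000962) and by 1.76 ± 0.15 in SFGL (adjusted p = 0.000663). *Myc* was at 23.8 and 18.6 FPKM in uFIB, 66.0 and 53.8 in SL and 93.0 and 75.2 in SFGL. It rose by 1.46 ± 0.11 (adjusted p = 0.000980) and 1.94 ± 0.11 (adjusted p = 0.000424). *Gapdh* was at 988 and 952 FPKM in uFIB, 2591 and 2241 in SL and 2394 and 2667 in SFGL. By day, 1 of the 41 list genes tested was called, where 2.55% of all genes were. This gene was *Epas1*, which encodes the hypoxia-inducible factor HIF2A. *Epas1* was at 24.5 and 81.0 FPKM in uFIB, 20.1 and 53.9 in SL, 10.9 and 32.4 in SFGL and 28.5 and 71.3 in FGL, and was higher at day 21 in all 4 treatments (1.46 ± 0.09, adjusted p = 0.00696).

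The genes with the most similar patterns were sought with Pearson's r over 13 values, the 5 stages and the 8 MEF libraries, each centered on the mean of its own table on log2(FPKM + 1), among 9054 genes. The values share libraries, cell types and scaling, and r is given as a description. For *Hk3* they were *Fcgr4*, an activating Fc receptor of myeloid cells (r = 0.99), *Slc6a4* (0.99) and *Cfp*, the complement factor properdin (0.99). *Slc2a3* was closest to *Suz12*, a subunit of Polycomb repressive complex 2 (r = 0.99), *Eri1* (0.98) and *Spdl1* (0.98). For *Pfkp* these were *Sos2* (0.99), *Cmtm7* (0.97) and *Stard4* (0.97). *Hk1* was closest to *Smox*, spermine oxidase (r = 0.98), *Pfkfb4* (0.97) and *Pla2g4a* (0.97). Among the 10 genes themselves, r was 0.92 between *Slc2a1* and *Slc2a3* and 0.90 between *Hk2* and *Pfkp*, whereas *Ldhb* had an r of -0.73 with *Hk1* and *Hk3* an r of -0.66 with *Pfkm*.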

How the data were processed

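The authors deposited FPKM values for the stages and for the MEFs. For the stages, colour-space reads were aligned with SHRiMP to mm10 (GRCm38), reads with a single position were kept, duplicates were removed with Picard, and Cufflinks gave 1 value per start site with the replicates combined. For the MEFs, the submitters' processing notes name TopHat and Cufflinks, and values are per gene and library. For ESC the submitters' notes name Bowtie and HOMER in place of Cufflinks, so that ESC may have been processed differently from MES, although its values stand in the same table. Versions are not given in the sources used here. Total RNA was depleted of ribosomal RNA for the stages. In the table of stages 1 column, for HE, was not used. The 22089 start site rows were summed per gene name.

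All 10 genes are reported, with the pathway genes of largest change by a fixed rule (for the stages up to 2 higher and 2 lower per transition that reached 10 FPKM, for the MEFs the 3 of smallest adjusted p per contrast) and the 3 genes most like each member, printed for 4 members. The members and lists were chosen with earlier results of these data known.

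Stages were compared without a test, by a 2-fold limit with a pseudocount of 1 FPKM. MEFs were compared with limma 3.58.1 (R 4.3.3; lmFit and eBayes with trend; 3 residual degrees of freedom and a prior of 2.47) at an adjusted p of 0.05, and the procedure was tested on simulated data. Low MEF values were compared with those of uFIB at day 12. The commonest ratio held in only 14.9% to 19.0% of the genes low in both, so no reads were recovered and no count test was run. The relative depth that this ratio would give ran from 0.586 (FGL at day 21) to 1.56 (SL at day 12), with uFIB at day 12 as 1, and was not used. Alternatives were pseudocounts of 0.1 and 0.001, no filter, scaling to the same upper quartile, the highest start site, a constant variance prior and leaving out libraries. Other calculations used Python 3.11.15, NumPy 2.4.6 and pandas 2.3.3. Nothing in the labels says that the replicates of a stage came from separate cultures.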

Additional observations from a re-analysis of the deposited data

How the results depend on the processing

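No paired analysis was possible because the replicates of a stage are combined in 1 value and each MEF condition has 1 library, so that no replicate numbers could be paired. Day was a term in the fit of the MEFs. With a pseudocount of 0.1 or 0.001 FPKM, the genes at least 2-fold higher from ESC to MES numbered 1142 or 1197 instead of 737 and those lower 1230 or 1275 instead of 775, and from MES to HB 397 or 414 instead of 258 were higher and 608 or 644 instead of 338 lower. After scaling to the same upper quartile, 2099 instead of 3623 genes were higher from HP to MAC and 2654 instead of 1500 lower. Without a filter on low values 1 instead of 2 genes was called in FGL, and 93 instead of 308 by day, which was 11 without both FGL libraries. With each library left out in turn, the genes called ranged from 3734 to 6231 in SL (6370 with all), 4952 to 6992 in SFGL (7126), 0 to 24 in FGL and 6 to 153 by day. The cause of these changes was not tested, except that leaving out libraries leaves fewer residual degrees of freedom.

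For the 10 genes, no difference of a called gene from uFIB changed sign under the 13 alternatives. Called genes numbered 8 in SL and in SFGL without both FGL libraries too, *Hk3* among them. The calls of *Hk1*, *Hk2*, *Pfkp*, *Slc2a3* and *Ldhb* in SL and SFGL held under all 13. *Hk3* passed the filter only through the SL and SFGL libraries, so that its calls are not counted as support. The stages have no replicate error, and the depth behind values near 0, such as those of *Hk3*, was not recovered.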
